A study of Mus musculus with 4 samples.

Results

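Nodal signalling was followed through 8 genes, 2 ligands (Nodal and Gdf3), 2 co-receptors (Tdgf1 and Cfc1) and 4 secreted antagonists (Lefty1, Lefty2, Cer1 and Fst), out of 27998 genes measured in single cells of 4 mouse cultures. The genes were chosen by name for their role in the pathway, with earlier results of these data known, and all 8 were in the table. Nodal is a ligand of the TGF-beta family that the early embryo uses to keep the epiblast pluripotent, to form mesoderm and endoderm in the primitive streak and to set the left-right axis around the node. It binds activin receptors together with a co-receptor of the EGF-CFC family and acts through SMAD2 and SMAD3 with the partner FOXH1. Lefty1 and Lefty2 are themselves targets of the signal and block it, so that the pathway limits its own range.

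Each culture is a protocol towards neuromesodermal progenitors (NMPs), the caudal source of spinal cord and somites, and each gave 1 library on the 10x Chromium system with 8700 cells loaded. Epi-NMP cells were Epi-CE cells replated for 2 days in N2B27 medium with FGF2 at 20 ng/ml and CHIR99021, a GSK3 inhibitor that turns on WNT signalling, at 3 µM. Epi-CE-T cells came from the reporter line Bra:GFP, were taken through the Epi-CE protocol and were sorted for GFP after 72 h, where GFP reports T, the Brachyury gene. Epi-CE, the caudal epiblast-like culture, started from epiblast stem cells held for at least 4 passages in FGF2 at 12 ng/ml and activin A, an agonist of the same receptors as Nodal, at 25 ng/ml. Activin A was then withdrawn, FGF2 was set to 20 ng/ml, and 3 µM CHIR99021 joined it from day 3. ES-NMP cells were embryonic stem cells given 2 days of N2B27 alone and then 24 h of CHIR99021 at 3 µM. All 4 libraries are labelled with the embryonic stem cell line E14Tg2a.

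The barcodes that the deposited cell table marks TRUE were used, 1111 cells in Epi-NMP, 2109 in Epi-CE-T, 2386 in Epi-CE and 3116 in ES-NMP, with 22261452 to 71563029 UMIs (unique molecular identifiers, counted molecules) a library and a median of 19189 to 22613.5 UMIs a cell. In Epi-NMP the mark left out 1513 of 2624 barcodes, and neither the labels nor the files say what it stands for. Of 8680 barcode sequences, 42 occurred in 2 or more libraries. T, the gene behind the sort, was at 241 UMIs per 1000000 library UMIs (CPM) in Epi-NMP, 382 in Epi-CE-T, 431 in Epi-CE and 102 in ES-NMP, so the sorted library did not exceed unsorted Epi-CE. Sox2, a gene of pluripotent and neural cells, was at 99.99 CPM in Epi-NMP, 49.0 in Epi-CE-T, 31.4 in Epi-CE and 71.7 in ES-NMP. Hprt, the purine salvage gene that E14Tg2a lacks in working form, was at 0.943 CPM in Epi-NMP and 0.801 CPM in Epi-CE, but at 138 CPM in Epi-CE-T and 204 CPM in ES-NMP. Only 2 of the 6 comparisons below, that of Epi-NMP with Epi-CE and that of Epi-CE-T with ES-NMP, do not set a library with Hprt against one without it. Cells with at least 3 of 8 caudal epiblast or NMP markers made up 20.4% of Epi-NMP, 0.616% of Epi-CE-T, 43.6% of Epi-CE and 42.6% of ES-NMP, and Cdx4 had no UMI in Epi-CE-T or Epi-CE. Library, line and protocol cannot be told apart, no difference has a replicate check, and every 95% interval below covers counting error only.

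The members lie at 8 loci of GRCm38, the assembly also called mm10, and all are protein-coding. Nodal is at chr10:61417972-61425338 on the plus strand, Gdf3 at chr6:122605403-122610087 on the minus strand, Tdgf1 at chr9:110939603-110946158 on the minus strand and Cfc1 at chr1:34535648-34544313 on the plus strand. Lefty1 (chr1:180935022-180938400) and Lefty2 (chr1:180893108-180899103) are neighbours on the plus strand, 35918 bases apart. Cer1 is at chr4:82881751-82885148 and Fst at chr13:114452290-114458951, both on the minus strand. Libraries of this kind mostly read the 3′ ends of transcripts, where close copies can share reads. Of 451 windows of 50 bases in the last 500 bases of Lefty1, 11 also occurred in Lefty2, and no window of Lefty2, Nodal, Tdgf1, Cer1 or Fst occurred in another gene. For Cfc1, 241 of 451 windows lay in Prss40, which overlaps it on the opposite strand but had 1 UMI in the 4 libraries together. For Gdf3, 42 windows were found in transcripts of many other genes, so its counts carry some doubt, and the size of this was not tested.

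Promoter sequences were at hand for 4 of the 8 genes (Nodal, Tdgf1, Cfc1 and Cer1) from RefSeq, build GRCm38.p6, each covering 250 bases before to 50 after the gene's start. Those of Tdgf1 (chr9:110946109-110946408, minus strand), Cfc1 (chr1:34535398-34535697, plus strand) and Nodal (chr10:61417722-61418021, plus strand) are shown because the 2 co-receptors and the ligand they serve had different patterns across the libraries. Capitals mark matches, on either strand, to a FOXH1 motif (TGTNNATT) or a SMAD motif (CAGAC), and no match overlapped another.
Tdgf1: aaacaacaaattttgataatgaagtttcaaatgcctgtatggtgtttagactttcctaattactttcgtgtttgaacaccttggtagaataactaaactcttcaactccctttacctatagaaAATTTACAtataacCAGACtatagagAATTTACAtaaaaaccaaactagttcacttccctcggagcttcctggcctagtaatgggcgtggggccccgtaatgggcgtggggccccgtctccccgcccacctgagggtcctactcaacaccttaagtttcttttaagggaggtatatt
Cfc1: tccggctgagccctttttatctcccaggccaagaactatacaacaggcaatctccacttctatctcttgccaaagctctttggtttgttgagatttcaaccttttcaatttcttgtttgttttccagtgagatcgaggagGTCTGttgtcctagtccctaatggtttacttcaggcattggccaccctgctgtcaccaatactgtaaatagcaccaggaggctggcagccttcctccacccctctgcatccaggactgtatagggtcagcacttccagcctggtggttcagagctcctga
Nodal: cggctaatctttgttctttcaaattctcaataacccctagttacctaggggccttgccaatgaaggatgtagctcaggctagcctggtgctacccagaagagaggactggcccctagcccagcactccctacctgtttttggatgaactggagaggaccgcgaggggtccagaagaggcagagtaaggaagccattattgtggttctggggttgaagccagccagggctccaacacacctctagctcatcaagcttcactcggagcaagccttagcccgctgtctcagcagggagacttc
Tdgf1 held 2 FOXH1 matches, which began 127 and 101 bases before its start, with 1 SMAD match between them at 113 bases. Cfc1 held 1 SMAD match, 110 bases before its start, Cer1 held 1 as well, and Nodal held neither motif in this window. Across 32851 promoters of the same length, 12.2% held the FOXH1 motif and 49.6% the SMAD motif. Neither the TCF/LEF motif CTTTGA nor the POU motif ATGCAAAT, which 5257 and 570 of those promoters held, was found in the 4 windows. A match is a description of letters and not a binding site.

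All members but Cfc1 were at their lowest in Epi-NMP, with intervals that overlapped the next library's for Nodal and Cer1. Gdf3, Tdgf1, Lefty1 and Lefty2 were highest in ES-NMP, Nodal, Cfc1 and Fst were highest in Epi-CE, and Cer1 was highest in Epi-CE-T. In Epi-NMP no UMI of Gdf3, Tdgf1 or Cer1 was seen among 22261452, which allows a level of up to 0.135 CPM for each. Cfc1 was lowest in ES-NMP. These are summed levels, in which fewer expressing cells and less RNA per cell cannot be told apart.

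**Figure D1:**
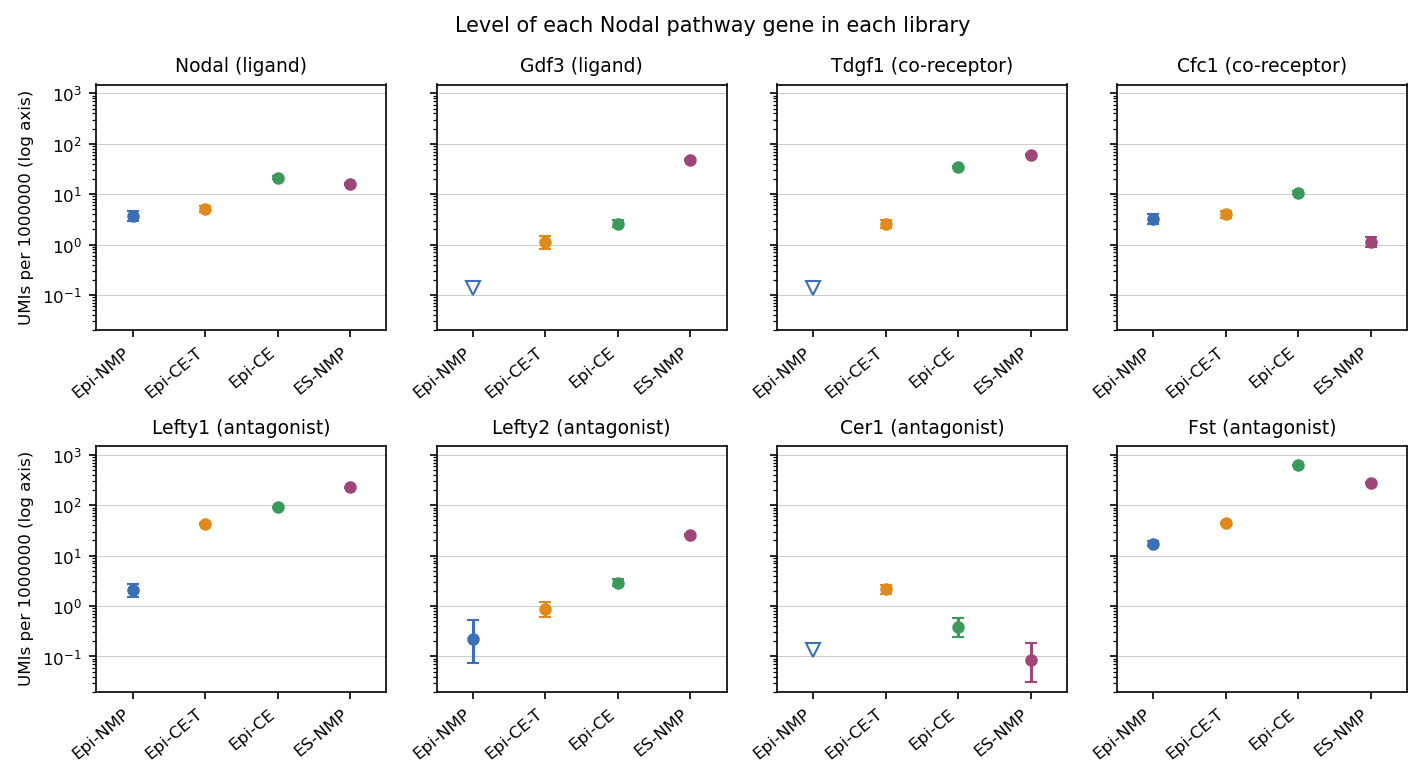
Each panel plots 1 gene, with the level in CPM on a log axis and the 4 libraries along the x axis. Points are the summed level with its exact Poisson 95% interval, and open triangles mark libraries with 0 UMIs, drawn at the level of 3 counts. Gdf3, Tdgf1, Lefty1 and Lefty2 stand out for the distance between ES-NMP and Epi-NMP, and Cfc1 for being lowest in ES-NMP.

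Nodal, the ligand itself, was at 3.68 CPM in Epi-NMP (2.93 to 4.57), 5.13 in Epi-CE-T (4.49 to 5.84), 21.4 in Epi-CE (20.2 to 22.6) and 16.1 in ES-NMP (15.2 to 17.0). The levels thus fell into a low pair and a high pair, and the intervals of the low pair overlapped. Nodal was 5.80-fold lower in Epi-NMP than in Epi-CE (4.64 to 7.35) and 4.16-fold lower in Epi-CE-T than in Epi-CE (3.62 to 4.81). Against ES-NMP it was 4.36-fold lower in Epi-NMP (3.49 to 5.53), 3.13-fold lower in Epi-CE-T (2.72 to 3.62) and 1.33-fold higher in Epi-CE (1.23 to 1.44).

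Gdf3, a ligand of the same family found in pluripotent cells, had 0 UMIs in Epi-NMP, 50 in Epi-CE-T, 153 in Epi-CE and 3435 in ES-NMP. These were levels of 0, 1.11, 2.61 and 48.0 CPM, so nearly all of its RNA was in ES-NMP. The level was at least 356-fold lower in Epi-NMP than in ES-NMP, 43.2-fold lower in Epi-CE-T (32.7 to 58.3) and 18.4-fold lower in Epi-CE (15.6 to 21.8). Of its 50 UMIs in Epi-CE-T, 25 were in the 105 cells with the most UMIs in all, which held 11.2% of the library. Without the 5% of cells with the most UMIs in each library, Gdf3 was 76.5-fold lower in Epi-CE-T than in ES-NMP, and whether those cells are doublets was not tested.

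The 2 co-receptors had different patterns. Tdgf1, also called Cripto, had 0 UMIs in Epi-NMP and was at 2.58 CPM in Epi-CE-T (2.13 to 3.09), 34.5 in Epi-CE (32.96 to 35.99) and 60.4 in ES-NMP (58.6 to 62.2). It was at least 448-fold lower in Epi-NMP than in ES-NMP and at least 256-fold lower than in Epi-CE, its parent culture. In Epi-CE-T it was 13.4-fold lower than in Epi-CE (11.1 to 16.3). Epi-CE was 1.75-fold lower than ES-NMP (1.66 to 1.85), but this rested on the ES-NMP cells with naive pluripotency markers. Once the 792 ES-NMP cells with at least 3 of 10 such markers were left out, a choice made after the values were seen, Tdgf1 was 1.42-fold higher in Epi-CE. Without the same cells the ES-NMP comparisons of Gdf3 were at least 151-fold lower in Epi-NMP, 18.3-fold lower in Epi-CE-T and 7.79-fold lower in Epi-CE. Tdgf1 was then at least 179.8-fold lower in Epi-NMP and 9.40-fold lower in Epi-CE-T.

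Cfc1, also called Cryptic and needed for left-right patterning in the mouse, was at 3.28 CPM in Epi-NMP (2.57 to 4.12), 4.00 in Epi-CE-T (3.44 to 4.63), 10.7 in Epi-CE (9.92 to 11.6) and 1.13 in ES-NMP (0.899 to 1.41). All 3 cultures derived from epiblast stem cells were above ES-NMP, and the intervals of Epi-NMP and Epi-CE-T overlapped. Epi-CE was 9.49-fold higher than ES-NMP (7.52 to 12.1), Epi-CE-T 3.53-fold higher (2.70 to 4.65) and Epi-NMP 2.90-fold higher (2.08 to 4.03). Within that lineage Cfc1 was 3.27-fold lower in Epi-NMP than in Epi-CE (2.57 to 4.23). The most-read cells did not carry it, since the 105 deepest Epi-CE-T cells held 1.11% of its UMIs there.

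Lefty1, a feedback antagonist of Nodal, was at 2.07 CPM in Epi-NMP (1.51 to 2.76), 43.0 in Epi-CE-T (41.1 to 45.0), 90.7 in Epi-CE (88.3 to 93.2) and 225 in ES-NMP (222.0 to 229). No 2 of these intervals overlapped. Epi-NMP was 109-fold lower than ES-NMP (81.8 to 149) and 43.9-fold lower than Epi-CE (32.9 to 60.0), and 1 Epi-NMP cell held 21 of the 46 UMIs behind these ratios. Without the cell with the most Lefty1 UMIs in each library they were 199-fold and 79.0-fold. Epi-CE was 2.49-fold lower than ES-NMP (2.41 to 2.56). Epi-CE-T was 2.11-fold lower than Epi-CE (2.00 to 2.22), at the very edge of the 2-fold mark.

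Lefty2, its neighbour on chromosome 1 and an antagonist of the same kind, was at 0.225 CPM in Epi-NMP on 5 UMIs, 0.867 in Epi-CE-T on 39, 2.91 in Epi-CE (2.49 to 3.39) and 26.2 in ES-NMP (25.0 to 27.4). The order was that of Lefty1, with a wider gap below ES-NMP in Epi-CE-T and Epi-CE. In Epi-NMP the gap was alike, with overlapping intervals for the ratios of both genes to ES-NMP. Epi-NMP was 117-fold lower than ES-NMP (49.9 to 360), Epi-CE-T 30.2-fold lower (22.0 to 42.7) and Epi-CE 8.99-fold lower (7.69 to 10.6). The 105 deepest Epi-CE-T cells held 25 of its 39 UMIs, and without the deepest 5% of each library Epi-CE-T was 75.8-fold lower than ES-NMP and 8.82-fold lower than Epi-CE, against 3.36-fold with all cells. Without the cell with the most Lefty2 UMIs in each library, Epi-NMP was 286-fold lower than ES-NMP. With the naive-marker cells of ES-NMP left out the ratios to ES-NMP were 62.4-fold in Epi-NMP, 16.2-fold in Epi-CE-T and 4.81-fold in Epi-CE, all lower.

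Cer1, a secreted antagonist of Nodal and BMP made by anterior endoderm and nascent mesendoderm in the embryo, was rare throughout, with 0 UMIs in Epi-NMP, 96 in Epi-CE-T, 23 in Epi-CE and 6 in ES-NMP. Its level of 2.13 CPM in Epi-CE-T (1.73 to 2.61) stood above 0.392 in Epi-CE (0.249 to 0.588) and 0.0838 in ES-NMP (0.0308 to 0.182). Epi-CE-T was 5.44-fold higher than Epi-CE (3.42 to 8.99) and 25.5-fold higher than ES-NMP (11.3 to 71.1), where 1 cell held 5 of the 6 UMIs and the ratio was 135-fold without the highest cell of each library. In Epi-CE-T its UMIs were spread over 40 cells, the highest with 11. It was the one member that was highest in the GFP-sorted library.

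Fst, follistatin, which binds activin and so keeps it from its receptors, was at 17.3 CPM in Epi-NMP (15.6 to 19.1), 44.0 in Epi-CE-T (42.1 to 46.0), 636 in Epi-CE (629.8 to 643) and 281 in ES-NMP (277 to 285). Epi-CE was thus far above Epi-NMP, which was grown from it, and above Epi-CE-T. Fst was 36.8-fold lower in Epi-NMP than in Epi-CE (33.3 to 40.8) and 14.5-fold lower in Epi-CE-T than in Epi-CE (13.8 to 15.1). Epi-CE was 2.27-fold higher than ES-NMP (2.23 to 2.31), and 1.77-fold higher once the ES-NMP cells with naive markers were left out.

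Detection in single cells was then counted. Every cell was thinned at random to 8000 UMIs, which all cells reached, and the share of cells with at least 1 UMI was taken. Fst was found in 8.55% of Epi-NMP cells (14.3% without thinning), 18.0% of Epi-CE-T cells (32.9%), 83.7% of Epi-CE cells (92.3%) and 51.5% of ES-NMP cells (61.9%). Follistatin RNA was therefore seen in most Epi-CE cells and in few Epi-NMP cells. Lefty1 was found in 0.720% of Epi-NMP cells (1.17% without thinning), 6.92% of Epi-CE-T cells (10.7%), 14.3% of Epi-CE cells (21.0%) and 31.1% of ES-NMP cells (42.7%). Tdgf1 was found in no Epi-NMP cell, with or without thinning, which allows a share of up to 0.270%. It was found in 1.14% of Epi-CE-T cells (2.66% without thinning), 12.4% of Epi-CE cells (21.8%) and 22.0% of ES-NMP cells (32.1%). For these genes the order of the shares was the order of the levels. Nodal was found in 2.07% of Epi-NMP cells (2.97% without thinning), 2.84% of Epi-CE-T cells (8.01%), 11.9% of Epi-CE cells (25.9%) and 10.3% of ES-NMP cells (21.7%). Its Epi-CE and ES-NMP intervals overlapped, at 10.7% to 13.3% in Epi-CE and 9.26% to 11.4% in ES-NMP, although the summed level was higher in Epi-CE. Gdf3 was found in 0% of Epi-NMP cells, 0.711% of Epi-CE-T cells (1.28% without thinning), 1.47% of Epi-CE cells (4.32%) and 23.8% of ES-NMP cells (38.9%). Lefty2 was found in 0.0900% of Epi-NMP cells (0.180% without thinning), 0.284% of Epi-CE-T cells (0.664%), 1.34% of Epi-CE cells (2.93%) and 11.3% of ES-NMP cells (19.8%). Both were thus found in few cells outside ES-NMP. Cfc1 was found in 3.24% of Epi-NMP cells (5.85% without thinning), 2.84% of Epi-CE-T cells (5.03%), 7.46% of Epi-CE cells (13.2%) and 0.738% of ES-NMP cells (1.99%), so that Epi-NMP and Epi-CE-T stood the other way round than in the summed level, again with overlapping intervals. Cer1 reached 1.14% in Epi-CE-T (1.90% without thinning) and at most 0.168% elsewhere.

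**Figure D2:**
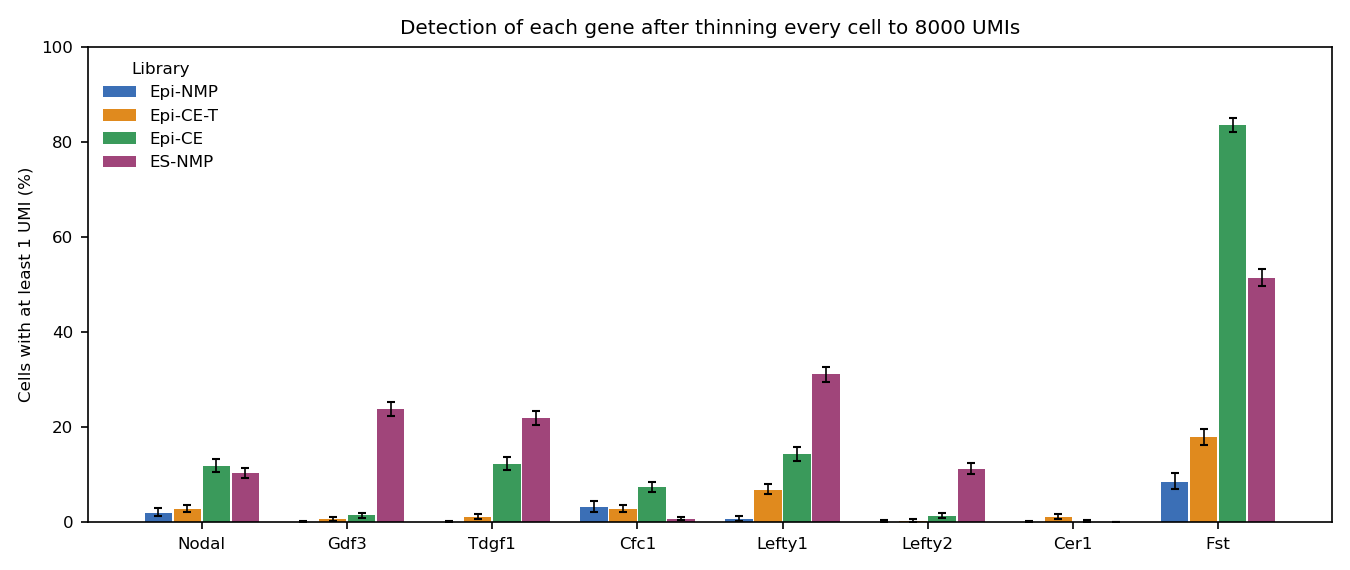
Bars give the percentage of cells with at least 1 UMI of each gene after every cell was thinned to 8000 UMIs, with exact Clopper-Pearson 95% intervals, for the 4 libraries in the order of the legend. Fst reaches 83.7% of Epi-CE cells, and Gdf3 and Lefty2 are found in more than 2% of cells in ES-NMP alone.

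Counted together, 86.7% of Epi-NMP cells and 71.0% of Epi-CE-T cells showed none of the 8 genes after thinning, against 10.9% of Epi-CE cells and 20.4% of ES-NMP cells. At least 3 of them were seen in 0.270% of Epi-NMP, 0.664% of Epi-CE-T, 9.85% of Epi-CE and 19.9% of ES-NMP cells. Cells in which several pathway genes were detected were thus mostly in ES-NMP and Epi-CE at this depth. Fst alone was in 51.5% of ES-NMP and 83.7% of Epi-CE cells. No number expected from the single shares was set beside these counts. Free RNA in the droplets can give UMIs to cells that do not express a gene, and no class of cells known to lack every member was available. The nearest measure of it is the share in a group where a gene is low. In ES-NMP, cells with caudal markers (median 22279 UMIs) held Gdf3 in 9.87% and Tdgf1 in 7.84%, against 34.2% and 32.5% of the other cells (median 21785 UMIs).

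The antagonist Lefty1 was unevenly spread over cells. The variance of its thinned UMIs was 9.33 to 14.8 times their mean in the 4 libraries, where that figure was 1.42 to 2.17 for Nodal. In Epi-CE-T 5% of cells held 92.6% of the Lefty1 UMIs and 1 cell held 250 of 1936. The same share of cells held 77.9% in Epi-CE and 51.5% in ES-NMP. Lefty1 RNA was thus concentrated in few cells, as Fst in Epi-CE was not, where the top 5% of cells held 17.1% of the UMIs. This share is also high for any gene found in few cells. In Epi-CE-T it was 100% for Gdf3, Tdgf1, Cfc1, Lefty2 and Cer1, 72.7% for Nodal and 56.9% for Fst. The count per positive cell without thinning averaged 3.54 Lefty1 UMIs in Epi-NMP (median 1), 8.60 in Epi-CE-T (median 2), 10.6 in Epi-CE (median 3) and 12.1 in ES-NMP (median 4). In Epi-CE-T, the 105 deepest cells held 31.0% of the Lefty1 UMIs and 22.2% of the Fst UMIs against 11.2% of all UMIs, and their part in these levels was not tested.

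Set beside every gene that had 50 or more UMIs in the 2 libraries compared, the members stood at the low end of most comparisons. These 6 comparisons share libraries and are not independent, and the members were chosen with earlier results of these data known. Epi-NMP had 6 of 7 measured members at least 2-fold lower than ES-NMP and 1, Cfc1, at least 2-fold higher, where 11.9% of 12949 genes were lower and 7.48% higher. Against Epi-CE, its parent culture, Epi-NMP had all 7 measured members at least 2-fold lower, where 13.7% of genes were, and none higher, where 5.59% were. The median log2 ratio of the members was -6.77 against ES-NMP and -4.27 against Epi-CE, with genes at 0 UMIs set at their bound, beside 0.02 and -0.01 over all genes. Against Epi-CE-T 5 of 7 were lower in Epi-NMP, where 17.8% of genes were, and none was higher, where 6.84% were (median -3.04, all genes -0.08). That last count was 3 of the members when every cell weighed the same, because Gdf3 then had too few UMIs and Fst was 1.97-fold lower. Gdf3, Tdgf1 and Cer1 had 0 UMIs in Epi-NMP and met the rule of 50 through Epi-CE-T alone (50, 116 and 96 UMIs). With 0 UMIs they could only be called lower, as could Gdf3 and Tdgf1 against ES-NMP and Epi-CE. Lefty1 (46 UMIs in Epi-NMP) and Lefty2 (5 UMIs) also reached 50 only with the UMIs of the other library. The shares over all genes were counted by the same rule.

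Epi-CE-T had 7 of 8 members at least 2-fold lower than Epi-CE and 1, Cer1, higher, where 7.03% and 8.39% of genes were (median -1.59, all genes 0.04). Compared with ES-NMP it had 6 of 8 lower and 2, Cer1 and Cfc1, higher, where 12.2% and 17.6% of genes were (median -2.53, all genes 0.08). Sorting and line are both different between Epi-CE-T and Epi-CE. Epi-CE compared with ES-NMP was the mixed case, with 3 of 7 lower (Gdf3, Lefty2 and Lefty1), 2 higher (Cfc1 and Fst) and 2 between (Nodal and Tdgf1), where 8.20% of genes were lower and 11.3% higher (median -0.81, all genes 0.03).

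Beyond the members, 26 further genes of the pathway were read, all of 1 list and not only those that differed: 3 ligands, 1 antagonist, 4 receptors, 2 convertases, 4 signal transducers, 6 feedback genes and 6 targets. Their median log2 ratio lay between -0.18, in Epi-NMP compared with Epi-CE, and 0.44, in Epi-NMP compared with ES-NMP. Of the 3 other ligands on the list, Gdf1 had no UMI in any library, and Inhba and Inhbb were at or below 0.0511 and 0.449 CPM in every library. The receptor gene Acvr2b was at 91.9 CPM in Epi-NMP, 57.7 in Epi-CE-T, 82.3 in Epi-CE and 57.3 in ES-NMP, and the transducer Smad2 at 32.7 CPM in Epi-NMP, 20.7 in Epi-CE-T, 23.0 in Epi-CE and 23.4 in ES-NMP. Neither crossed 2-fold in any comparison. The type I receptor gene Acvr1b was at 3.23 CPM in Epi-NMP, 4.07 in Epi-CE-T, 5.15 in Epi-CE and 2.39 in ES-NMP, and Acvr1c had at most 2 UMIs in any library.

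Epi-NMP had 6 of 21 measured genes of this list at least 2-fold lower than ES-NMP and 5 higher, beside 11.9% of all genes lower and 7.48% higher. It had 6 of 21 lower than Epi-CE and 1 higher, beside 13.7% and 5.59% of all genes. Pmepa1, a feedback inhibitor of SMAD signalling, was at 0.584 CPM in Epi-NMP, 3.02 in Epi-CE-T, 3.05 in Epi-CE and 2.59 in ES-NMP. Epi-NMP was the low library, 4.43-fold below ES-NMP (2.53 to 8.47), 5.23-fold below Epi-CE (2.98 to 10.01) and 5.18-fold below Epi-CE-T (2.93 to 9.97). Foxh1, the SMAD partner, had 2 UMIs in Epi-NMP and was 9.68-fold lower than in Epi-CE (2.55 to 82.1). Smad7, an inhibitor of the receptors, was at 4.54 CPM in Epi-NMP, 7.91 in Epi-CE-T, 5.05 in Epi-CE and 9.68 in ES-NMP. These 3 genes had their lowest level in Epi-NMP, which for Smad7 was close to that in Epi-CE. Of the other feedback genes and signal transducers on the list, Tgif1 was also lowest in Epi-NMP, at 68.1 CPM. Bambi (42.8 CPM), Smad2 (32.7), Smad4 (21.1) and Ski (21.0) were highest there, and Skil and Smad3 lay in between. Gsc, an organizer gene, was at 1.35 CPM in Epi-NMP, 6.62 in Epi-CE-T, 2.57 in Epi-CE and 3.03 in ES-NMP. Mesp1, a gene of nascent mesoderm, was highest in Epi-NMP, with 10.5 CPM in Epi-NMP, 1.76 in Epi-CE-T, 1.19 in Epi-CE and 0.810 in ES-NMP. The targets thus differed in direction.

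Epi-CE-T had 4 of 21 measured list genes at least 2-fold lower than Epi-CE and 1 higher, beside 7.03% and 8.39% of all genes. Mixl1, a gene of the primitive streak, was at 7.73 CPM in Epi-NMP, 0.533 in Epi-CE-T, 15.5 in Epi-CE and 15.9 in ES-NMP, so Epi-CE-T was 29.0-fold below Epi-CE (19.4 to 45.6). Eomes, which acts with Nodal in the streak, was 4.14-fold lower in Epi-CE-T than in Epi-CE (2.69 to 6.63), and Lhx1, an organizer gene, 4.36-fold lower (3.54 to 5.40). Gsc was the one higher gene, 2.57-fold (2.11 to 3.15). Epi-CE had 1 of 22 lower than ES-NMP, Pcsk6, a convertase that cleaves the Nodal precursor (0.341 against 2.43 CPM), and 4 higher, led by Foxa2, Lhx1 and Furin, beside 8.20% and 11.3% of all genes. Foxa2, a gene of node and endoderm, was at 15.3 CPM in Epi-NMP, 34.3 in Epi-CE-T, 35.4 in Epi-CE and 1.26 in ES-NMP. Furin, the other convertase, was at 12.5 CPM in Epi-NMP, 7.31 in Epi-CE-T, 7.86 in Epi-CE and 3.49 in ES-NMP. For Epi-CE-T over ES-NMP the count was 4 lower (Mixl1, Pcsk6 and Eomes lowest) and 5 higher (Foxa2, Smad3 and Gsc highest) of 22, near the 12.2% and 17.6% of all genes. For Epi-NMP over Epi-CE-T it was 3 lower (Pmepa1, Gsc and Foxa2) and 5 higher of 20, beside 17.8% and 6.84% of all genes, with Mixl1, Mesp1 and Ski, a SMAD co-repressor, highest.

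**Figure D3:**
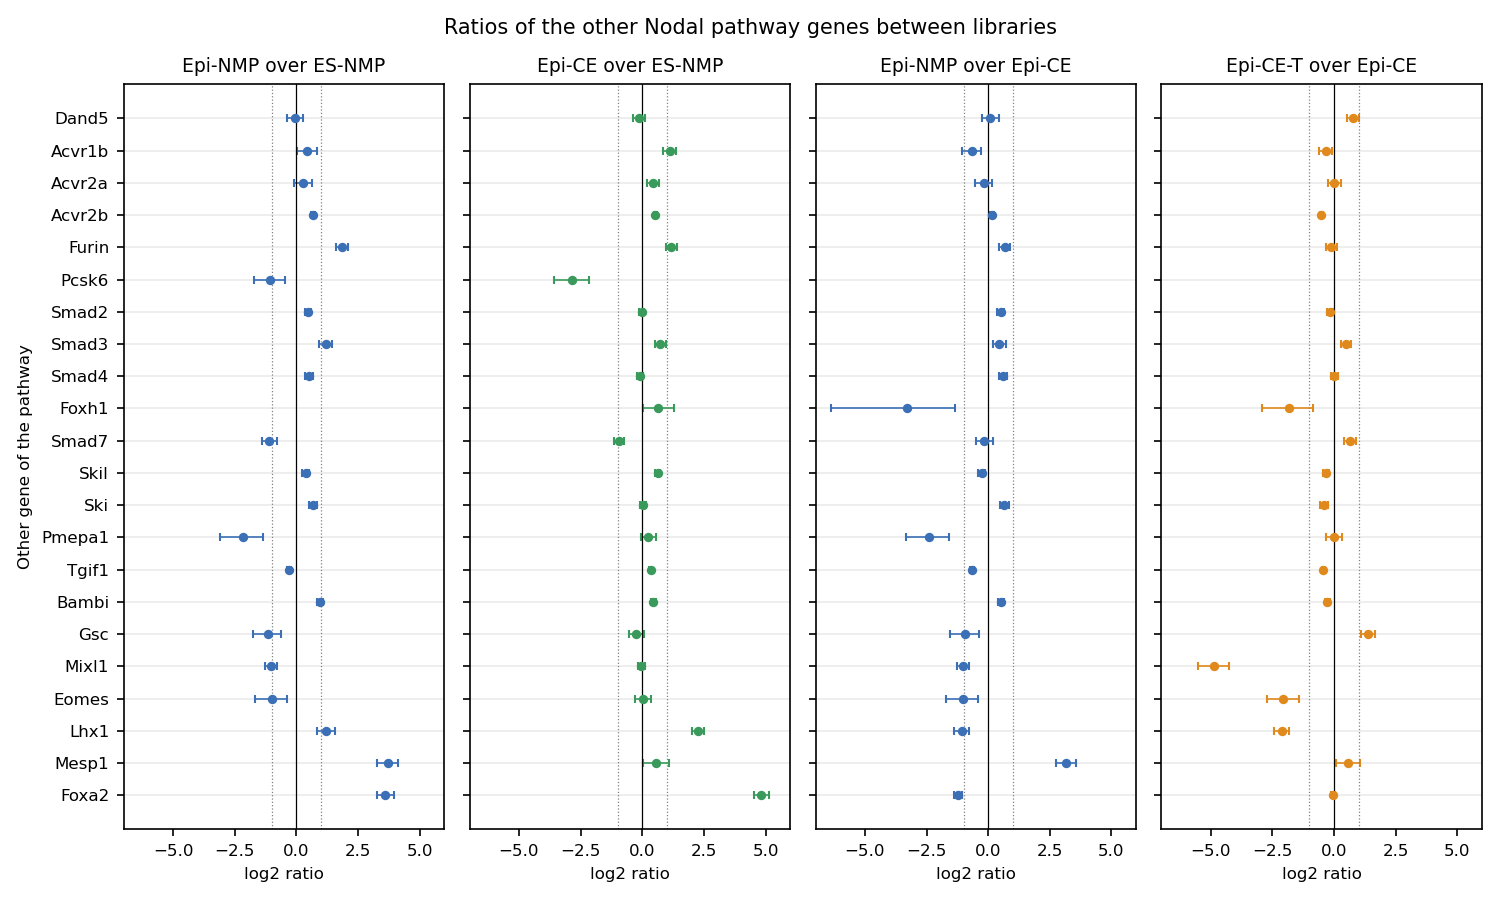
Each panel gives, for 1 comparison of 2 libraries, the log2 ratio of the other pathway genes that had 50 or more UMIs in the pair, with exact 95% intervals for counting error, a solid line at 0 and dotted lines at 2-fold. Pmepa1 lies furthest to the left for Epi-NMP over ES-NMP, Foxh1 for Epi-NMP over Epi-CE, and Mixl1 in that of Epi-CE-T over Epi-CE.

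Whether the genes were found in the same cells was asked within each library, from thinned counts, as cells with both genes over the number expected from the product of their shares. A pair was counted when at least 5 such cells were expected. Epi-NMP had no such pair and Epi-CE-T had 3, each with Fst and each with an interval that held 1. In Epi-CE-T these were Nodal with Fst at 1.67 (0.989 to 2.64), Lefty1 with Fst at 0.99 (0.647 to 1.45) and Cfc1 with Fst at 0.65 (0.261 to 1.34). Some pairs left uncounted there had intervals above 1 on few cells. They were Nodal with Lefty1 (12 cells, 4.15 expected), Gdf3 with Fst (9, 2.70 expected) and Tdgf1 with Lefty1 (8, 1.66 expected). Lefty1 with Lefty2 (4 cells) and Gdf3 with Tdgf1 (2 cells) were the others, and the remaining uncounted intervals in Epi-CE-T held 1. Of 13 pairs in Epi-CE 4 had an interval above 1 and none below it. Pairs with Fst, which 83.7% of Epi-CE cells held, could rise little above 1, so they could hardly be among the 4. Of 19 pairs in ES-NMP 10 were above and 3 below, each of these 3 with Fst. Lefty1 with Fst was among the 10 above, at 1.17 (1.08 to 1.27).

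In Epi-CE, Tdgf1 and Lefty1 shared 105 cells where 42.2 were expected, a ratio of 2.49 (2.04 to 3.01). Nodal and Tdgf1 shared 69 (1.96, 1.52 to 2.48), Cfc1 and Lefty1 shared 48 (1.89, 1.39 to 2.50) and Nodal and Lefty1 shared 71 (1.74). Lefty1 was therefore found beyond the expected number with either co-receptor, whereas the co-receptors Tdgf1 and Cfc1 shared 18 cells where 22.0 were expected (0.82, 0.485 to 1.29). Fst, present in most Epi-CE cells, gave 0.998 with Nodal (0.875 to 1.13) and 0.90 with Lefty2 (0.574 to 1.33). Fst was thus about as frequent in cells with Nodal, at 83.5%, as in all Epi-CE cells. Over the counted pairs that share ran from 75.0% of cells with Lefty2 to 91.5% of cells with Tdgf1.

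In ES-NMP, the ligand and its co-receptor gave the highest ratio, with Nodal and Tdgf1 together in 172 cells where 70.7 were expected (2.43, 2.08 to 2.83). Of the Nodal-positive cells 53.6% had Tdgf1, against 22.0% of all cells. Nodal with Lefty2 gave 2.30 (1.83 to 2.85), Tdgf1 with Lefty2 2.20 (1.88 to 2.56), Gdf3 with Tdgf1 2.10 and the neighbours Lefty1 and Lefty2 2.05, at 224 cells where 109 were expected. Nodal, Tdgf1 and the Lefty genes were thus found together more often than their shares give, whereas the interval of Gdf3 with Lefty1 held 1 (1.13, 0.9997 to 1.28). At the other end, Gdf3 and Fst shared 231 cells where 383 were expected (0.60, 0.528 to 0.687), and 2 pairs of Cfc1 ranked below on few cells, with Fst (0.59, 0.238 to 1.22) and with Lefty1 (0.56, 0.152 to 1.43).

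Part of this goes with the naive-marker cells of ES-NMP, as leaving them out showed. Among the other 2324 ES-NMP cells Nodal and Tdgf1 gave 4.22 (3.29 to 5.34), Nodal and Lefty2 3.47 and Tdgf1 and Lefty2 3.14, higher than in all cells. The ratio can reach higher where a gene is in fewer cells, and Tdgf1 was in 9.34% of these cells against 22.0% of all. The rise therefore cannot be read as closer co-detection. Gdf3 and Lefty2 gave 1.15 (0.704 to 1.78) there, against 1.73 (1.46 to 2.04) in all ES-NMP cells, and so no longer lay above 1. The pairs below 1 were no longer below it, with Gdf3 and Fst at 1.01 (0.864 to 1.18), Tdgf1 and Fst at 1.15 (0.977 to 1.34) and Lefty2 and Fst at 1.21 (1.01 to 1.45). Of 16 pairs counted there, 11 had an interval above 1 and none below it.

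**Figure D4:**
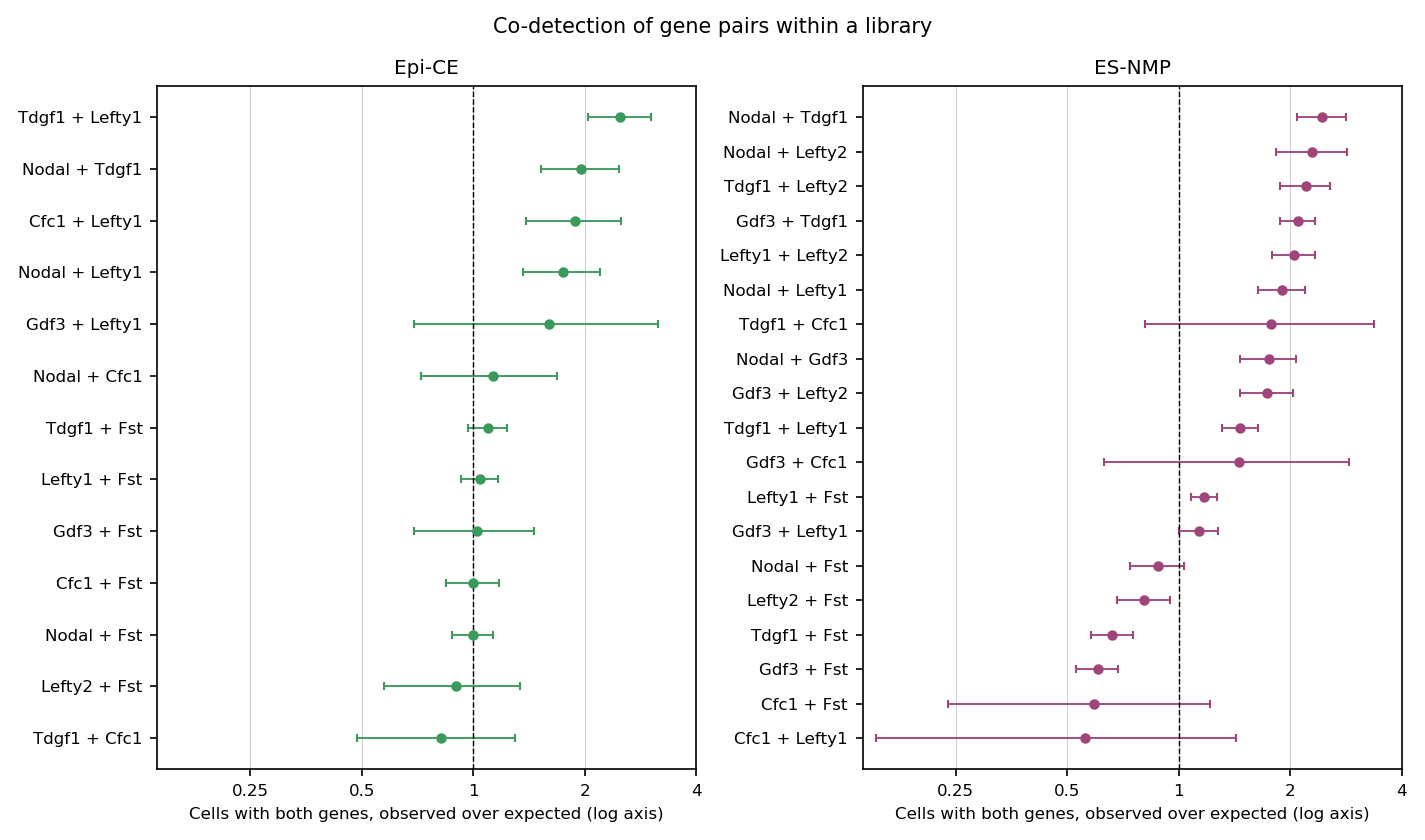
For each pair of genes with at least 5 expected cells, the number of cells with both genes over the number expected is plotted on a log axis, with an exact Poisson 95% interval on the observed cells, in Epi-CE and in ES-NMP. The dashed line is at 1, and the pairs of Nodal, Tdgf1, Lefty1 and Lefty2 lie to its right in ES-NMP while Tdgf1 and Gdf3 with Fst lie to its left.

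Cells were then grouped by whether at least 3 markers of a class were detected after thinning, which gives ranges along a score and not cell types, and a cell may belong to several. The naive pluripotency markers summed to 31.1 CPM in Epi-NMP, 20.6 in Epi-CE-T, 61.0 in Epi-CE and 763 in ES-NMP. Zfp42 had no UMI in Epi-NMP or Epi-CE-T and Dppa3 none in Epi-NMP. In ES-NMP 792 cells (25.4%) met the naive rule, 195 of them with exactly 3 markers, and 269 more had 2. Gdf3 was at 125 CPM in these cells against 20.3 CPM in the rest of ES-NMP, 6.17-fold higher (5.74 to 6.64). Tdgf1 was at 161 against 24.2 CPM, 6.66-fold higher (6.23 to 7.11). Lefty2 was 4.30-fold higher (60.3 against 14.0 CPM) and Nodal 2.81-fold higher (30.6 against 10.9 CPM). These 4 genes were thus higher in cells with naive markers than in the rest of ES-NMP, while Fst was 6.10-fold lower in them (59.0 against 360.2 CPM). Lefty1 stood apart from Lefty2 here by summed level only, at 185 CPM in the naive-marker cells against 240.0 CPM in the rest. That difference was gone when 2 markers were enough. By share of cells Lefty1 was higher with naive markers, at 35.9% against 29.5%, as Lefty2 was at 24.5% against 6.76%.

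Cells of ES-NMP with caudal epiblast or NMP markers, 1327 in number of which 558 had exactly 3 markers, showed the opposite order. The rest of ES-NMP here can include naive-marker cells, so this may be partly the same contrast, and the overlap of the groups was not counted. Fst was at 499.8 CPM in them against 117 CPM in the rest, 4.29-fold higher (4.15 to 4.43), and was detected in 77.0% against 32.6% of cells. Lefty1 was 1.67-fold higher (293 against 175 CPM). Tdgf1 was at 18.1 against 92.1 CPM and Gdf3 at 18.0 against 70.5 CPM, both lower. Follistatin was higher with caudal markers in Epi-CE too, at 851 CPM in 1040 marker-positive cells against 481 CPM in the rest (1.77-fold, 1.73 to 1.81), where Tdgf1 was at 19.9 against 45.0 CPM. The 149 ES-NMP cells with primed epiblast markers had Lefty1 at 445 against 213 CPM, Tdgf1 at 155 against 55.2 CPM and Nodal at 39.3 against 14.8 CPM. In Epi-CE the 134 primed-marker cells had Nodal at 39.7 against 20.1 CPM and Tdgf1 at 63.9 against 32.4 CPM, but Cfc1 at 3.68 against 11.2 CPM.

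The co-receptor Cfc1 followed another class. In the 66 Epi-CE cells with node and notochord markers it was at 91.1 CPM, against 9.02 CPM in the rest, 10.1-fold higher (8.16 to 12.4), and was detected in 30.3% against 6.81% of cells. Of these cells 51 had exactly 3 markers, and with 2 markers enough, in 254 cells, Cfc1 was 6.29-fold higher. Lefty1 was 1.89-fold higher in the same cells (168 against 89.0 CPM), and Tdgf1 lower (10.6 against 35.0 CPM). Their shares of cells were close, with Lefty1 detected in 13.6% against 14.3% and Tdgf1 in 10.6% against 12.4%. In Epi-CE-T 328 cells (15.6%) had node and notochord markers, with Cfc1 at 11.8 against 2.80 CPM (4.20-fold, 3.07 to 5.71), Lefty1 at 26.3 against 45.6 CPM and Cer1 at 1.16 against 2.29 CPM. Cfc1 was thus higher with node markers in both libraries. Lefty1 was higher in the Epi-CE cells by summed level only, and lower in the Epi-CE-T cells. The node markers summed to 53.5 CPM in Epi-NMP, 234 in Epi-CE-T, 79.8 in Epi-CE and 4.00 in ES-NMP, which is not the order of Cfc1 across libraries. In Epi-NMP 23 cells had such markers, with 4 Cfc1 UMIs and 7 of its 82 Nodal UMIs.

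Some small groups of cells also differed from the rest of their library. In 24 ES-NMP cells with primitive streak markers Tdgf1 was at 500.3 against 57.1 CPM, 8.76-fold higher (7.70 to 9.92), and Cfc1 at 30.4 against 0.915 CPM, on 16 of its 81 UMIs. With 2 markers enough, in 109 cells, Tdgf1 was 2.14-fold and Cfc1 10.9-fold higher. Of the 6 Cer1 UMIs in ES-NMP, 5 were in 1 of these 24 cells. In Epi-NMP, 48 cells with paraxial mesoderm markers had Fst at 46.4 against 15.9 CPM, 2.92-fold higher (2.10 to 3.97). No member was higher in the 141 ES-NMP cells with contractile markers, where Tdgf1 was at 19.8 against 62.5 CPM and Lefty2 at 6.62 against 27.2 CPM.

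**Figure D5:**
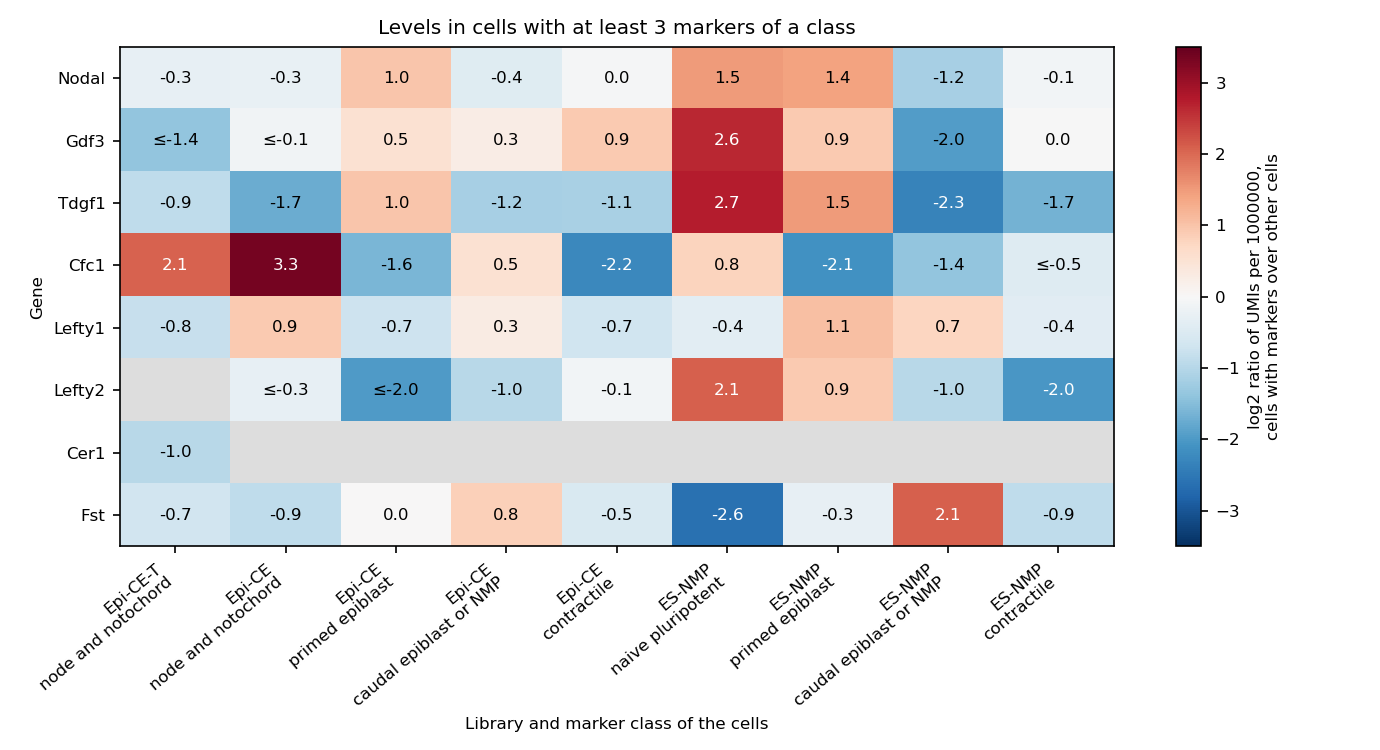
Colours and printed numbers give the log2 ratio of the level in cells with at least 3 markers of a class over that in the other cells of the same library, with genes down the page and library and class along the x axis. Grey squares mark genes with fewer than 50 UMIs in the library, Epi-NMP is not shown, and a sign of at most marks a class with 0 UMIs set at 3 counts. Among the classes drawn, which leave out those under 50 cells, the ratio of Gdf3 and Tdgf1 is highest with naive markers in ES-NMP, that of Fst with caudal markers in ES-NMP, and that of Cfc1 with node and notochord markers in Epi-CE.

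The genes whose detection was most like that of a member were looked up in the library where the member was found in most cells, by the phi coefficient of detection after thinning. This is a description across cells of 1 library, and genes of similar depth and state share it. Tdgf1 in ES-NMP was most like Tdh (0.50), a threonine dehydrogenase of mouse stem cells, Zfp42 (0.48) and Utf1 (0.44), all genes of pluripotent cells, and Gdf3 had the same 3 genes at 0.48, 0.44 and 0.44. The ligand Nodal was most like its co-receptor Tdgf1 (0.26), then Dppa5a (0.21) and Tdh (0.21). Lefty1 was like Lefty2 (0.25), T (0.22) and Nodal (0.21), and Lefty2 was most like Lefty1 (0.25), Zfp42 (0.23) and Tdgf1 (0.23). Among the genes named for Nodal, Lefty1 and Lefty2, then, stood at least 1 other gene of the pathway. Fst in Epi-CE was most like Pou5f1 (0.33), the pluripotency gene Oct4, Nkx1-2 (0.26), a homeobox gene of the caudal epiblast, and Igfbp3 (0.24). Cfc1 in Epi-CE had 1 gene that reached 0.2, Sepp1 (0.21), which encodes a selenium transport protein. Cer1 was found in 24 cells of Epi-CE-T, too few for this measure.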

How the data were processed

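The authors deposited 1 table of raw counts, the whole number of UMIs of each gene in each barcode, and a cell table that gives each barcode's library and a TRUE or FALSE mark. Cell Ranger 1.3.1, Seurat 2.0 and the build mm10 are named per the submitters' processing notes; how reads were aligned, annotated and assigned to a strand is not stated there. All columns belong to a sample (0 do not).

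The 8722 of 10579 barcodes marked TRUE were used and all were kept: no doublet caller was run, and leaving out the 5% of cells with the most UMIs was an alternative. UMIs were summed per library and divided by the library total (CPM). Each group is 1 library, so nothing could be tested over samples and no p-value was computed. Intervals are exact 95% intervals (Poisson for a level, conditional binomial for a ratio, Clopper-Pearson for a share) and cover counting error only. A ratio was counted from 50 UMIs over both libraries and a difference from 2-fold; a library at 0 was set to 3 counts and its ratio is a bound. For detection, each cell was thinned to 8000 UMIs with a fixed seed, and no cell was shallower. Depth was 22261452 UMIs in Epi-NMP, 44990488 in Epi-CE-T, 58663735 in Epi-CE and 71563029 in ES-NMP.

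All 8 members are described. Other pathway genes were named where they were among the 3 furthest in each direction past 2-fold in a comparison, or for a level. The remaining genes of the list are counted but not described, and some other genes are not reported here. The members and gene lists were chosen with earlier results of these data known. Statistics were checked on simulated data. Alternatives were TMM (edgeR 4.0.16) and DESeq2 1.42.0 size factors, used as scaling only, equal weight per cell, all barcodes, other depths, thresholds and seeds, and 3 added after the data were seen, which left out ES-NMP cells with naive markers or the cell highest in each member. Python 3.11.15, numpy 2.4.6, scipy 1.17.1, pandas 2.3.3 and R 4.3.3 were used.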

Additional observations from a re-analysis of the deposited data

Results flagged for a closer look

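4 of the 8 members were seen above the limit of 3 counts in the 1513 Epi-NMP barcodes marked FALSE, which no comparison used and whose median depth was 4720 UMIs. Follistatin, Fst, was at 20.6 CPM there (158 UMIs, 17.5 to 24.1), against 17.3 CPM in the Epi-NMP cells marked TRUE. Cfc1 was at 3.00 CPM (23 UMIs, 1.90 to 4.50), against 3.28 CPM in the cells marked TRUE, and Nodal at 2.35 CPM (18 UMIs, 1.39 to 3.71), against 3.68 CPM. Cer1, which had no UMI in the TRUE cells, was at 0.522 CPM (4 UMIs in 4 barcodes, 0.142 to 1.34). Gdf3, Tdgf1 and Lefty1 had 1 UMI each in these barcodes and Lefty2 had none, so the low level of the co-receptor Tdgf1 in Epi-NMP did not depend on which barcodes were used. The number of UMIs that came with free RNA in these shallow barcodes was not tested.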

How the results depend on the processing

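The counts of members at least 2-fold apart were within 1.5 times of those reported in 129 of 132 recomputations. The exceptions were the members higher in Epi-CE than in ES-NMP, 1 in place of 2 without the ES-NMP cells with naive markers, where Fst was 1.77-fold higher, and those lower in Epi-NMP than in Epi-CE-T, 3 in place of 5, both with equal weight per cell and without the deepest and shallowest 10% of cells. Of 423 ratios of members 349 moved by less than their counting interval, as did 136 of 159 co-detection values, 83 of 160 shares of cells and 36 of 73 class ratios. Without the naive-marker cells, co-detection in ES-NMP passed to above 1 for Gdf3 with Fst (1.01), Tdgf1 with Fst (1.15) and Lefty2 with Fst (1.21). With 2 markers per cell, the ratio of Lefty1 in naive-marker cells of ES-NMP was 1.0, against 0.771, and that of Fst in caudal-marker cells of Epi-NMP was 0.774, against 1.31. The cause of these shifts was not tested. DESeq2 size factors moved the median gene of Epi-CE-T over ES-NMP by -0.10 (log2). No paired analysis was possible because each group had 1 library. Depth limits Cer1 in all libraries and Lefty2 in Epi-NMP (5 UMIs).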

Other observations

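Genes outside the 8 members differed between cells with and without a member, after thinning to 8000 UMIs. These partner genes were chosen after values were seen, and the shares are descriptions. Cells with Cfc1 held Foxa2, a gene of node and endoderm, in 33.3% in Epi-NMP, against 10.0% of Epi-NMP cells without Cfc1. In Epi-CE-T the shares were 45.0% with Cfc1 and 18.5% without it, and in Epi-CE 47.8% with and 17.5% without. Pou5f1, the pluripotency gene Oct4, was found in 75.0% of the 24 Epi-CE-T cells with Tdgf1, against 16.8% of those without it. It was found in 41.1% of the Epi-CE-T cells with Lefty1, against 15.7% without, and in 38.3% of those with Nodal, against 16.8% without. T was found in 91.8% of Epi-CE cells with Lefty1, against 76.5% without it, and in 47.6% against 25.0% in ES-NMP. In Epi-CE-T it was the other way, with 65.1% of cells with Lefty1 (56.7% to 72.8%) against 75.4% without it (73.5% to 77.3%). In ES-NMP, cells with Fst held T in 48.8%, against 14.2% of cells without Fst. All 24 Epi-CE-T cells with Cer1 but 1 held T (95.8%), against 74.5% of the other cells of that sorted library.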
